A study of Mus musculus with 14 samples.

Results

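Ccdc109a, Ccdc109b, Letm1, Vdac1, Vdac2 and Vdac3 encode the pore of the mitochondrial calcium uniporter, its paralogue, an inner membrane ion exchanger and the 3 channels of the outer mitochondrial membrane. These 6 genes were chosen by symbol from the 23337 genes of the count table, and all 6 were found. Ccdc109a and Ccdc109b are the table's older symbols for Mcu and Mcub. Heart cardiomyocytes were profiled by polyA RNA-seq in 14 libraries from mice carrying Rosa-Cas9GFP, a Cas9 and green fluorescent protein allele at the Rosa locus. Newborn mice (P1) received an adeno-associated virus (AAV), and at 4 weeks of age the cardiomyocytes were isolated on a Langendorff apparatus and then sorted by fluorescence. The 7 KO libraries came from mice given AAV-Ryr2gRNA, a virus with guide RNA against Ryr2, the calcium release channel of the sarcoplasmic reticulum. The 7 Ctrl libraries came from mice given AAV-Cre, so both groups carried the Cas9 allele and a virus. The labels used here leave out whether the guide virus also delivered Cre, which promoter drove each cargo and where the guide cuts. They do not say that libraries of a group came from separate mice. All p-values therefore rest on the spread among the libraries, and that spread may be technical.

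Mitochondria of heart muscle take up calcium across both of their membranes in turn. VDAC channels, also called porins, let ions and metabolites such as ATP and ADP through the outer membrane, and the uniporter carries calcium down the membrane potential into the matrix. There calcium raises the activity of dehydrogenases that feed the respiratory chain. MCU forms the uniporter's pore, MCUB is a homologous subunit that lowers its conductance, and LETM1 exchanges cations for protons across the inner membrane.

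Library size ranged from 5689335 to 13165662 counted reads. Ryr2 ranged from 602 to 763 CPM (read counts of a gene scaled to library size, with TMM factors) in Ctrl libraries and from 225 to 371 in KO libraries, so every library followed its label. Cardiomyocyte markers were abundant throughout, with a summed level of 77197 to 91752 CPM in Ctrl and 63160 to 87285 in KO libraries. Of 7 such markers, 4 fell (Ryr2, Tnnt2 at log2 -0.28, Tnni3 at -0.45 and Pln at -0.33), while Myh6 (-0.06), Actn2 (-0.05) and Ttn did not pass. In a principal component analysis the first component (37.9% of variance) parted the groups. The second (24.2%) set apart Ctrl4, Ctrl5, KO4 and KO5, which carry the numbers 7 to 10 in the library names of the labels. Those 4 libraries also held the most macrophage marker RNA, 116 to 451 CPM summed over 12 genes against 24.8 to 98.6 in the other 10. The same sum was 24.8 to 120 CPM in Ctrl and 62.4 to 451 in KO libraries, and 3 of the 10 macrophage markers tested rose (Lyz2, Emr1 and C1qb), with a median log2 fold change of 1.23 over the 10. Without the set of 4, 7 macrophage markers rose, and within it 9 did. Fibroblast markers summed to 596 to 1233 CPM in the set of 4 and 162 to 377 in the others, and none of the 7 tested passed between groups, nor did any of 7 endothelial markers. Within the set, 6 fibroblast markers were called higher in KO and 1 endothelial marker was, and without it no fibroblast marker was called and 3 endothelial markers were called lower. Pericyte and smooth muscle markers summed to 968 to 1252 CPM in Ctrl and 1333 to 2178 in KO libraries. Acta2 made up most of that sum, at 696 ± 108 CPM in Ctrl and 1211 ± 321 in KO libraries. Acta2 was higher (log2 0.80), Abcc9 lower (-0.38) and the other 4 did not pass. Without the set of 4, 1 of these markers was called higher and 2 lower, and within it none was called. The 6 blood genes summed to 1.38 to 17.2 CPM in Ctrl and 2.58 to 76 in KO libraries. Of these, Hba-a1 and Hbb-b1 were at 0 in all libraries, while the globin Beta-s was at 7 ± 5.14 CPM in Ctrl and 16.9 ± 22.2 in KO and did not pass. The part of these cells in the results that follow was not tested. The called members and the porin shares are given with and without the 4 libraries, and the lists of mitochondrial genes only as counts. In these bulk samples, fewer cells of a type and less RNA per cell cannot be told apart.

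The members lie on different chromosomes (mm10, gene spans in the count table). Ccdc109a spans chr10:59446984-59616692 on the minus strand with 2872 bp of exon in 8 merged exons. Letm1 spans chr5:33741352-33782704 on the minus strand with 3480 bp in 14 exons. Vdac1 spans chr11:52361115-52389396 on the plus strand with 1766 bp in 9 exons. Vdac2 spans chr14:21831561-21845879 on the plus strand with 1662 bp in 10 exons, and Vdac3 spans chr8:22577075-22593813 on the minus strand with 1423 bp in 9 exons. Ccdc109b spans chr3:129914960-129970206 on the minus strand with 1318 bp in 8 exons. Reads were counted over all these exons, untranslated parts included.

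RefSeq promoter windows (GRCm38.p6) were found for 4 of the 6 genes, and 3 of them are shown because these genes were lower together in KO libraries. Each is the 250 bases before the start site, 5′ to 3′ on the gene's strand, with matches to the motifs described next in capitals.
Ccdc109a, chr10:59616693-59616942, minus strand: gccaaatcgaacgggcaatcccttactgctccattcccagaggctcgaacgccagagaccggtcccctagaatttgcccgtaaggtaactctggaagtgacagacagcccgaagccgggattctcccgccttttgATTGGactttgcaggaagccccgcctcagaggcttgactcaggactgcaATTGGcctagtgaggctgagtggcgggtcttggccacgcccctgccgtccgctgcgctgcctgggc
Letm1, chr5:33782718-33782967, minus strand: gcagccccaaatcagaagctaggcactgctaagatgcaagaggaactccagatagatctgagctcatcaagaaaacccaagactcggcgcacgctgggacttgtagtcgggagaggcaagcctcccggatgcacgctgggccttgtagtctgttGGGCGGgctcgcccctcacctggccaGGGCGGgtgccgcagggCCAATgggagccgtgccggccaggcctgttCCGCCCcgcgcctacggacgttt
Vdac1, chr11:52360601-52360850, plus strand: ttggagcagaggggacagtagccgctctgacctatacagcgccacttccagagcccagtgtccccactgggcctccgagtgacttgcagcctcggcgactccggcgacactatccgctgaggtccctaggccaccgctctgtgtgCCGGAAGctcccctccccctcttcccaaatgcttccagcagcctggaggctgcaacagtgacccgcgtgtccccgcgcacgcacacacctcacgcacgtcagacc

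These windows were searched on both strands for 8 motifs: the NRF1 half-site TGCGCA, the ETS element CCGGAAG, the CCAAT box, the GC box GGGCGG, the cyclic AMP element TGACGTCA, the ERR element TCAAGGTCA, the amino acid response core TGATGNAAN and the E-box CACGTG. Ccdc109a held 2 CCAAT boxes on the opposite strand, 115 and 66 bp before its start site. Letm1 held a CCAAT box at 53 bp and GC boxes at 96, 70 and 23 bp. Vdac1 held an ETS element at 105 bp, and the window of its other RefSeq start held 3 GC boxes, at 247, 179 and 145 bp. No motif was present in all 3 printed windows and no matches overlapped each other. Among 32851 mouse promoter windows of the same length, 33.8% held a CCAAT box, 32.7% a GC box and 6.91% the ETS element. The other shares were 6.43% for the NRF1 half-site, 6.02% for the E-box, 3.44% for the amino acid response core, 1.55% for the cyclic AMP element and 0.387% for the ERR element. The 3 windows had a GC content of 60.8%, 63.6% and 65.2%, against a median of 52.4% over all windows. The window of Ccdc109b, a gene not called lower, had a GC content of 48.0%. It held an ETS element at 178 bp and a CCAAT box at 229 bp, so these motifs were not particular to the genes that fell. The start sites lay 0 bp from the count table's gene start for Ccdc109a and 13 bp for Letm1. Vdac1 has another RefSeq start downstream, and the count table's start lies between the pair, so its window is an alternative.

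Per kilobase of exon, the outer membrane channels were far more abundant than the inner membrane genes. Vdac1 led in Ctrl libraries at 710 ± 29.3 CPM per kb (SD, n = 7), followed by Vdac2 at 302 ± 21.8 and Vdac3 at 243 ± 17.8. Letm1 stood at 82.9 ± 6.19, the pore gene Ccdc109a at 11.9 ± 1.06 and its paralogue Ccdc109b at 0.328 ± 0.296 CPM per kb. The Ctrl ranges of neighbours in this order did not overlap. The order held in all 14 libraries apart from Vdac2 over Vdac3, which held in 13; in KO7 the pair were level. Vdac1 thus had 2.35 times the per-kb level of Vdac2, and Letm1 6.98 times that of Ccdc109a, in Ctrl libraries.

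**Figure D1:**
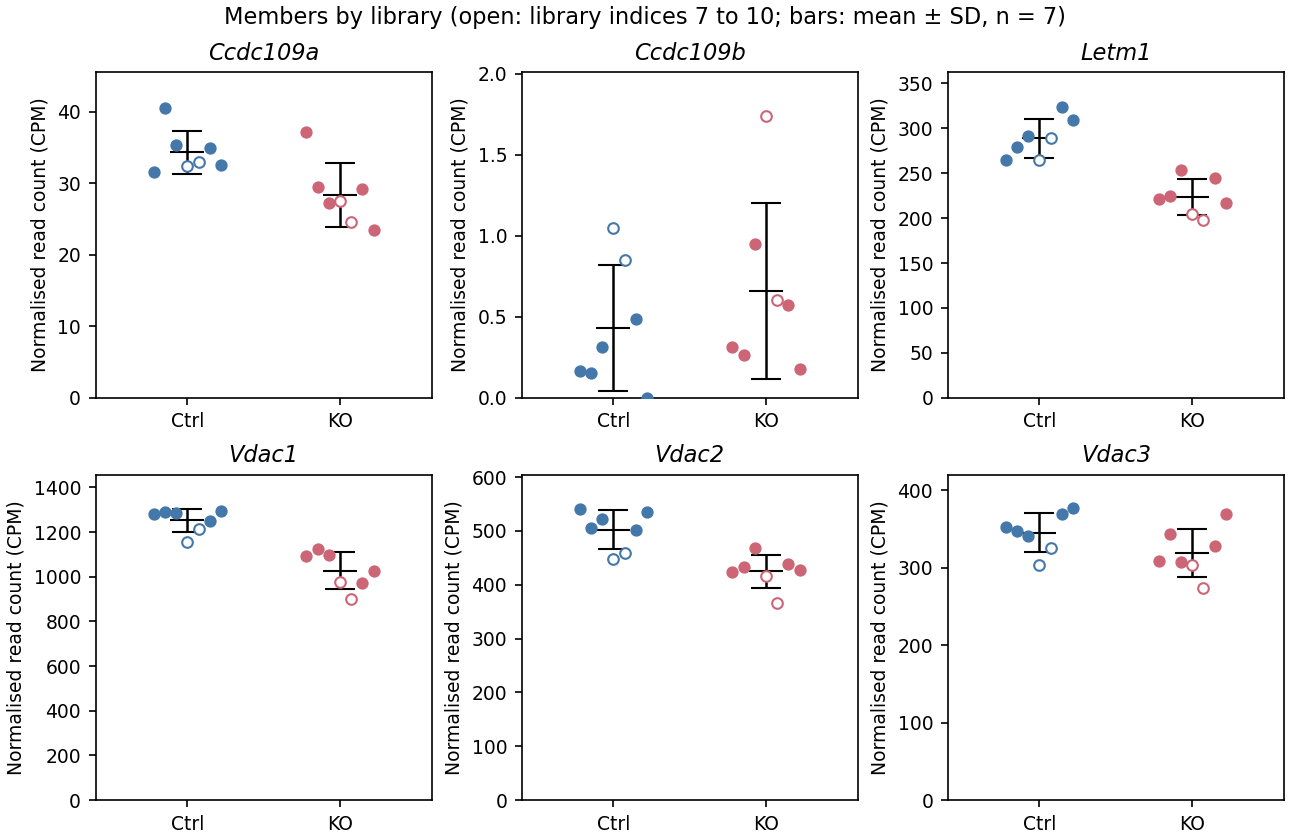
Normalised read count (CPM, linear axes from 0) of each of the 6 genes in the 7 Ctrl and 7 KO libraries; points are libraries, open points the set numbered 7 to 10, and bars the mean ± SD. The groups part without overlap for Letm1 and Vdac1, nearly part for Ccdc109a and Vdac2, and overlap for Vdac3 and Ccdc109b. Over all genes tested, 4.71% part in this direction, a share not computed for abundant genes alone.

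Of the 6 genes, 5 passed the filter on low counts (11170 genes did so in all), and 4 of those 5 fell in KO libraries at an adjusted p under 0.05 (edgeR quasi-likelihood test, Benjamini-Hochberg over all genes tested). They were Ccdc109a, Letm1, Vdac1 and Vdac2, and no member rose. Over all genes tested, 13.7% were called lower and 14.5% higher. Vdac1, Vdac2, Vdac3 and Letm1 are abundant, and among tested genes with a mean log2 CPM of 7 or more the share called lower was 39.0%, so the members' count is to be read against that share. The median log2 fold change (KO minus Ctrl) was 0.0139 over all genes tested and -0.13 over the abundant genes. The 4 falls were small: KO means were 77.5% to 84.6% of Ctrl means.

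Ccdc109a, the uniporter pore, was lower in most KO libraries. Its level ran from 31.6 through a median of 32.9 to 40.5 CPM in Ctrl libraries and from 23.4 through 27.5 to 37.1 in KO libraries. In 6 of 7 KO libraries it lay below every Ctrl library, and the exception, KO1, was higher than all but Ctrl2. The mean was 34.3 ± 3.05 CPM in Ctrl and 28.4 ± 4.44 in KO (SD, n = 7 each). The log2 fold change was -0.28 (SE 0.093, edgeR adjusted p = 0.035). A two-sided exact permutation test over the 3432 assignments of libraries gave p = 0.011. This call was near its threshold: without the set numbered 7 to 10 the log2 fold change was -0.26 (edgeR adjusted p = 0.12), in that set alone -0.37 (edgeR adjusted p = 0.11). Leaving out any of 7 single libraries (Ctrl2, Ctrl3, Ctrl6, KO3, KO4, KO5 or KO7) also took the adjusted p past the threshold, with log2 fold changes of -0.27 to -0.23.

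Ccdc109b, the paralogue that makes a less conductive pore, was close to the limit of detection. It had 55 counts in all, 22 in Ctrl and 33 in KO libraries, with 0 to 11 in a library. In 8 libraries it had 3 counts or fewer, and 3 counts were worth 0.228 to 0.527 CPM. Its mean was 0.432 ± 0.39 CPM in Ctrl and 0.661 ± 0.543 in KO, and the groups overlapped. The mean log2 CPM differed by 0.43 (two-sided exact permutation p = 0.33, n = 7 each), so no difference was detectable at this depth. That value was 0.21 without KO4, 0.23 without Ctrl7 and 0.72 with a prior count of 0.5, and passed in none of these. The set numbered 7 to 10 held 30 of the 55 counts, at 1.02 CPM against 0.326 CPM in the other 10 libraries. That set was richest in macrophage, fibroblast and endothelial marker RNA alike. Endothelial markers summed to 610 to 817 CPM in it and 229 to 511 in the others. Which cells these counts came from was not tested.

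Letm1, the cation and proton exchanger, had the largest estimated fall of the 5 tested members. Its level ran from 265 through a median of 289 to 323 CPM in Ctrl libraries and from 198 through 221 to 254 in KO libraries. The groups did not overlap, which was so in this direction for 4.71% of all genes tested. That share was not computed for abundant genes alone, among which 39.0% were called lower, so it may understate how common this is for genes like Letm1. The mean went from 289 ± 21.5 to 223 ± 20.2 CPM (SD, n = 7 each), a log2 fold change of -0.37 (SE 0.0651, edgeR adjusted p = 0.00043). Its exact permutation p was 0.00058, the lowest possible here. The log2 fold change was -0.33 without the set numbered 7 to 10 and -0.50 in that set alone, and it passed the test in both.

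Vdac1, the main porin of heart mitochondria, likewise had no KO library within the Ctrl range. All KO libraries were below all Ctrl libraries, as for 4.71% of all genes tested, a share not computed for abundant genes alone. Ctrl libraries ran from 1155 through a median of 1280 to 1296 CPM, and KO libraries from 899 through 1024 to 1126 CPM. The mean went from 1253 ± 51.7 to 1027 ± 82.7 CPM (SD, n = 7 each). The log2 fold change was -0.29 (SE 0.0572, edgeR adjusted p = 0.0012), with an exact permutation p of 0.00058. Ctrl4 and Ctrl5 were the lowest Ctrl libraries, and KO5, of the same set of 4, was the lowest of all. Within that set the log2 fold change was -0.38, and -0.27 in the other 10 libraries, past the test in both.

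Vdac2, the isoform known to hold BAK in the outer membrane, fell as well. It ran from 448 through a median of 506 to 541 CPM in Ctrl libraries and from 366 through 428 to 468 in KO libraries. In 6 of 7 KO libraries it was below every Ctrl library, and KO3 alone reached into the Ctrl range. The mean went from 502 ± 36.2 to 425 ± 30.6 CPM (SD, n = 7 each), a log2 fold change of -0.24 (SE 0.0606, edgeR adjusted p = 0.0064, exact permutation p = 0.0017). Without the set numbered 7 to 10 it was -0.25 (edgeR adjusted p = 0.0047), and in the set alone -0.26 (edgeR adjusted p = 0.10). Vdac2 shares 19 of its 1662 exonic bases with the antisense gene Comtd1, which rose from 4.6 to 7.82 CPM, far below Vdac2.

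Vdac3, the least abundant porin here, did not pass the test. It ran from 303 through a median of 348 to 377 CPM in Ctrl libraries and from 274 through 309 to 369 in KO libraries. Only 1 KO library lay below the Ctrl range. The mean was 345 ± 25.3 CPM in Ctrl and 319 ± 30.7 in KO (SD, n = 7 each), a log2 fold change of -0.11 (SE 0.067, edgeR adjusted p = 0.24, exact permutation p = 0.11). Vdac2 and Vdac3 have near-identical pseudogene copies in the GENCODE vM21 annotation that have no row in the count table. The Vdac2 copy Gm7832 matches at 97.0% over 881 bp. The Vdac3 copies Vdac3-ps1 and Gm7591 match at 99.2% and 96.7% over 856 bp. How reads that match both places were treated is not stated in the labels, so the levels of Vdac2 and Vdac3 are uncertain. No such copy was found for the other 4 genes at 90% identity over 300 bp.

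In the authors' deposited table the log2 fold changes were -0.29 for Ccdc109a, -0.38 for Letm1, -0.3 for Vdac1, -0.25 for Vdac2, -0.12 for Vdac3 and 0.57 for Ccdc109b. The authors' deposited table gives adjusted p-values of 0.24 for Vdac3 and 0.62 for Ccdc109b, and of 0.024 or less for the other 4.

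The mix of porins was compared as each isoform's share of VDAC reads per kb within a library, a measure that scaling cannot move. Vdac1 made up 56.6 ± 0.887% of it in Ctrl and 54.8 ± 1.54% in KO libraries (SD, n = 7 each), and all 7 KO libraries were below the Ctrl median. Vdac3 made up 19.3 ± 0.673% in Ctrl and 21.2 ± 1.42% in KO, with all 7 KO libraries above the Ctrl median. Its own level did not rise (log2 fold change -0.11), while Vdac1 and Vdac2 were lower. The uncertainty from pseudogene copies of Vdac2 and Vdac3 applies to these shares too. Vdac2 stayed near 24.1% in both groups, with a difference of 0.02 points. The ranges overlapped for all 3, for Vdac3 from 18.7 to 20.5% in Ctrl and 19.3 to 23.7% in KO. Two-sided exact permutation tests gave p = 0.016 for the Vdac1 share, p = 0.0070 for the Vdac3 share and p = 0.96 for the Vdac2 share. Adjusted over the 10 within-library ratios compared, the permutation p was 0.031 for Vdac1 and 0.017 for Vdac3. Those 10 include each member's difference from the respiratory chain, described below. That reference was known to be lower in KO libraries, so these adjusted values partly rest on it. Without the set numbered 7 to 10 (5 against 5 libraries) the differences were -1.44 points for Vdac1 and 1.75 points for Vdac3, with permutation-based adjusted p of 0.249 and 0.143. The set alone, with 2 libraries a group, is too small for this test.

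The members were also set against 22 nuclear genes of the respiratory chain, known from earlier results of these data to be lower in KO libraries and used only as a reference. The mean log2 CPM of this reference fell by 0.46, and 21 of its 22 genes were called lower (Sdhc was not). A gene that did not move would therefore sit 0.46 above it, and any smaller fall appears as a rise relative to it. The differences are given as a description of how far each member fell short of the reference's fall, with no p-value read from them. On the log2 scale they were 0.35 for Vdac3, 0.22 for Vdac2, 0.18 for Ccdc109a, 0.17 for Vdac1 and 0.09 for Letm1. All 7 KO libraries lay above the Ctrl median for Vdac2 and Vdac3, 6 of 7 for Vdac1, and 5 of 7 for Ccdc109a and Letm1. Letm1 was thus the member nearest to the reference. The ratio of Ccdc109b to Ccdc109a per kb was -5.41 ± 1.33 (log2) in Ctrl and -4.47 ± 1.06 in KO, which did not pass (exact permutation p = 0.16, adjusted 0.2). Without the set numbered 7 to 10 the porin differences from the reference were 0.16, 0.18 and 0.32 for Vdac1, Vdac2 and Vdac3.

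**Figure D2:**
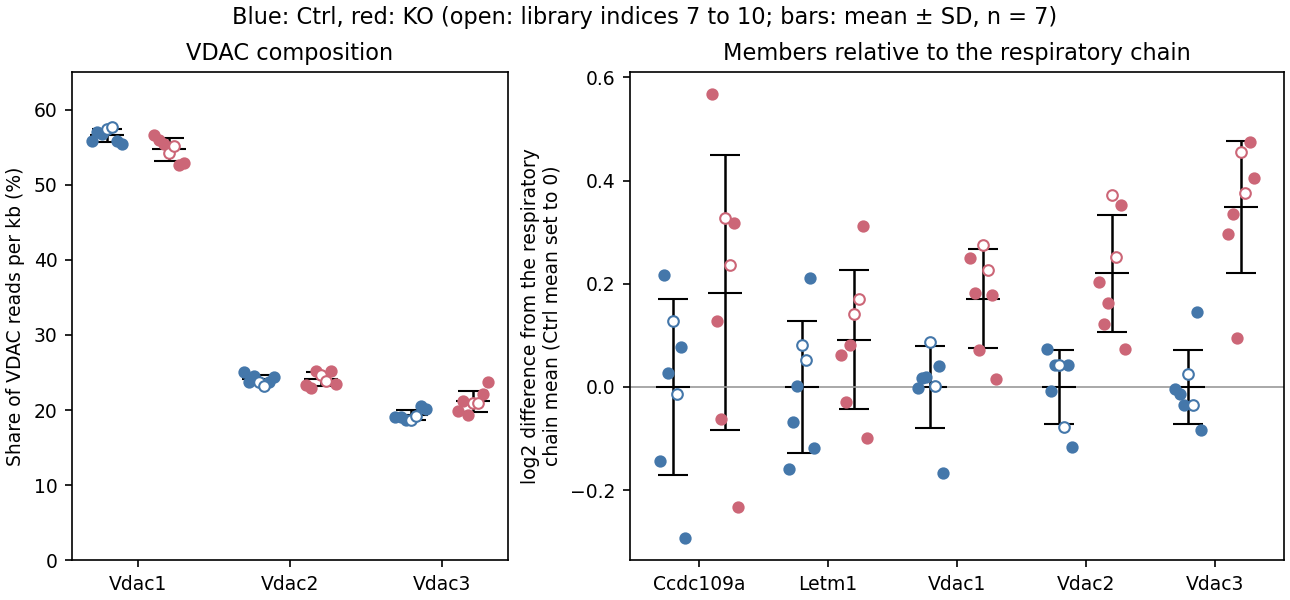
Left, share of VDAC reads per kb (%) for each porin; right, log2 level of 5 members relative to the mean of 22 respiratory chain genes, with the Ctrl mean set to 0. Points are libraries (blue Ctrl, red KO, open for the set numbered 7 to 10) and bars the mean ± SD of 7. Vdac3 gains share, from 19.3 to 21.2%, without a rise in its own level, as Vdac1 and Vdac2 were lower. In the right panel the members' means fell less than the reference. The reference itself fell by 0.46, so a gene with no change would show a rise of that size.

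The 11 genes listed here that bind, assemble or process the uniporter moved in both directions. Of these, 1 rose, 4 fell and 6 did not pass, with a median log2 fold change of -0.06. The counts of this list and those below are to be read against the shares over all genes tested. Those were 13.7% called lower and 14.5% higher, and 39.0% lower among genes with a mean log2 CPM of 7 or more. Slc25a23, a calcium-binding ATP-Mg/phosphate carrier that interacts with the uniporter, rose from 41.3 ± 2.52 to 58.9 ± 6.73 CPM (log2 0.51, edgeR adjusted p = 7.2e-05). Its level ran from 38.5 to 45.4 CPM in Ctrl and from 48.3 to 69.9 in KO libraries. The genes that fell were Ccdc90a (Mcur1, an assembly factor; log2 -0.28), Spg7 and Afg3l2 (subunits of the matrix AAA protease; -0.36 and -0.22), and 9430016H08Rik (Maip1, which works with that protease; -0.45), with edgeR adjusted p of 0.021 or less. The most abundant genes not called were Efha1 (Micu2, a calcium-binding regulatory subunit; log2 0.10, edgeR adjusted p = 0.30) and 1500032L24Rik (Smdt1, the small EMRE subunit that the pore needs; -0.07, edgeR adjusted p = 0.57).

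The most abundant regulators not called were set against the pore gene within each library, as a ratio described after the values were seen, with no test. Efha1 per Ccdc109a, in reads per kb, was 4.39 to 5.71 in Ctrl libraries (mean 5.04 ± 0.554) and 5.28 to 8.46 in KO libraries (mean 6.63 ± 1.03), with 6 of 7 KO libraries above the Ctrl range. Ccdc109a is the divisor, so its lower level in KO libraries raises the ratio by construction. The KO ratio was thus lowest in KO1, the KO library with the most Ccdc109a, and highest in KO7, which had the least. 1500032L24Rik per Ccdc109a was 18.9 ± 2.25 in Ctrl and 22 ± 4.46 in KO, and its ranges overlapped, with 2 KO libraries above the Ctrl range.

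**Figure D3:**
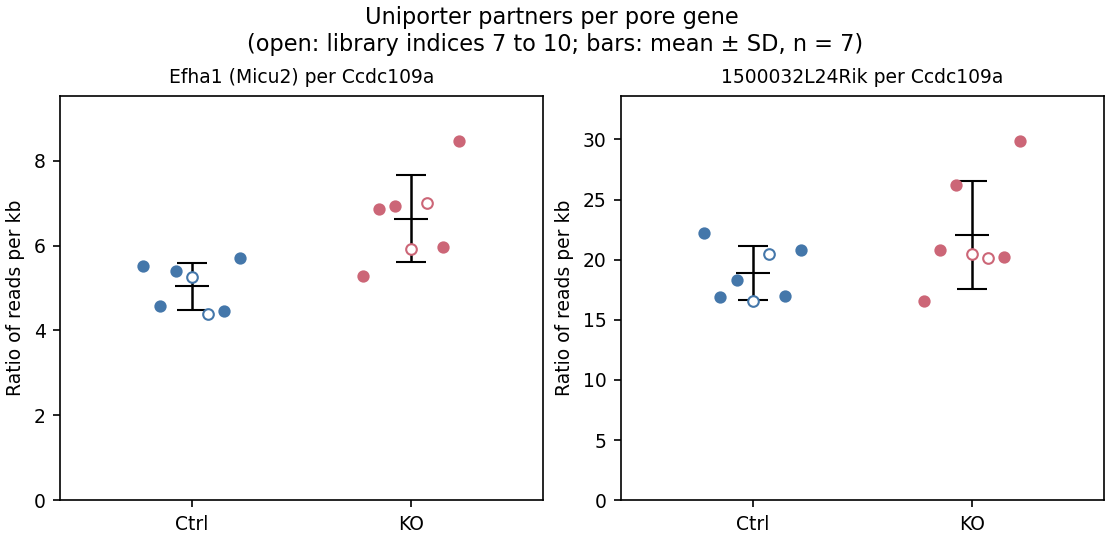
Reads per kb of Efha1 and 1500032L24Rik divided by those of the pore gene Ccdc109a in each library (linear axes from 0, n = 7 a group, bars mean ± SD, open points the set numbered 7 to 10). For Efha1, 6 of 7 KO libraries sit above the Ctrl range of 4.39 to 5.71, while 2 do so for 1500032L24Rik. The lower level of the divisor Ccdc109a in KO libraries raises both ratios by construction.

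The next list held 16 other genes linked to mitochondrial calcium transport, not all of them transporters. Of these, 1 rose, 7 fell and 8 did not pass (median log2 fold change -0.18). Ghitm, also known as TMBIM5 and described as a calcium and proton exchanger, rose from 1393 ± 113 to 1697 ± 253 CPM (log2 0.29, edgeR adjusted p = 0.020). Ucp2, an uncoupling protein homologue, changed most and went from 174 ± 48.3 to 67.5 ± 15.2 CPM (log2 -1.37, edgeR adjusted p = 1.6e-05). The calcium-regulated aspartate-glutamate carriers Slc25a12 and Slc25a13 both fell with log2 fold changes of -0.27. Stoml2 (-0.35), the prohibitins Phb (-0.25) and Phb2 (-0.22), which scaffold the inner membrane, and Tmem65 (-0.19) fell as well. Slc24a6 (Slc8b1), the sodium-calcium exchanger that removes matrix calcium, was at 2.98 ± 0.761 CPM in Ctrl and 4.41 ± 1.6 in KO and did not pass (edgeR adjusted p = 0.11). The Letm1 relatives Letm2 (log2 0.23) and Letmd1 (0.13) did not pass either. Of the genes not called, Tmbim4 (-0.17) and Ucp3 (-0.65) were the most abundant.

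The 24 genes whose proteins bind VDAC or hold the reticulum against mitochondria also split. Of these, 4 rose, 5 fell and 15 did not pass (median -0.04). Slc25a4, the heart's main ADP/ATP carrier of the inner membrane, fell from 9652 ± 710 to 6072 ± 847 CPM (log2 -0.67, edgeR adjusted p = 1.9e-05). Ppif (cyclophilin D, the regulator of the permeability transition; -0.55), the mitochondrial creatine kinase Ckmt2 (-0.42), and the mitofusins Mfn1 (-0.39) and Mfn2 (-0.26) fell too. The apoptosis regulators Bax (log2 0.60) and Bcl2 (0.99) rose, as did the outer membrane protein Tspo (0.71) and Hk1 (0.32), a hexokinase that docks on VDAC. Bcl2 was low throughout, at 4.02 ± 1.36 CPM in Ctrl and 7.99 ± 2.29 in KO. Tuba4a (-0.23, edgeR adjusted p = 0.13) and Hspa9, the chaperone that bridges VDAC1 and the inositol trisphosphate receptor (0.11, edgeR adjusted p = 0.23), were the most abundant genes not called.

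In a further list of 27 outer membrane genes, 2 rose, 9 fell and 16 did not pass (median -0.14). Maoa, a monoamine oxidase, rose from 1.99 ± 0.486 to 6.16 ± 1.76 CPM (log2 1.64, edgeR adjusted p = 3.4e-05), while its more abundant relative Maob fell from 71.7 ± 5.8 to 54.4 ± 10.7 CPM (log2 -0.40, edgeR adjusted p = 0.0094). Acsl1, which activates fatty acids, fell by 0.40 on the log2 scale. The import receptor Tomm70a (-0.31), the transport adaptors Rhot2 (-0.35) and Rhot1 (-0.26), Fundc2 (-0.26) and Tomm40l (-0.21) fell as well. Mff (-0.18, edgeR adjusted p = 0.062) and Mtx2 (-0.20, edgeR adjusted p = 0.065) did not pass. The falls of Vdac1 and Vdac2 thus lay within the range of the outer membrane genes that fell.

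The genes listed for mitochondrial dehydrogenases with calcium-sensitive activity, and for the phosphatases of pyruvate dehydrogenase, were mostly lower in KO libraries. Nearly all act in the matrix. Of 11 genes, 9 fell, none rose and 2 did not pass (median -0.42). The share called lower was 13.7% over all genes tested and 39.0% over those with a mean log2 CPM of 7 or more. Pdhb, a subunit of pyruvate dehydrogenase, went from 1439 ± 138 to 965 ± 71.6 CPM (log2 -0.58, edgeR adjusted p = 9.3e-06). The pyruvate dehydrogenase genes Dlat (-0.45) and Pdha1 (-0.30), the isocitrate dehydrogenase genes Idh3b (-0.53), Idh3a (-0.43) and Idh3g (-0.33), and the oxoglutarate dehydrogenase genes Dlst (-0.44) and Ogdh (-0.33) all fell. Gpd2, the glycerol phosphate dehydrogenase of the inner membrane, fell by 0.42 on the log2 scale. The phosphatases Pdp1 (-0.11) and Pdp2 (-0.16), which switch pyruvate dehydrogenase on, did not pass. The reference list of the respiratory chain had a median of -0.47.

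**Figure D4:**
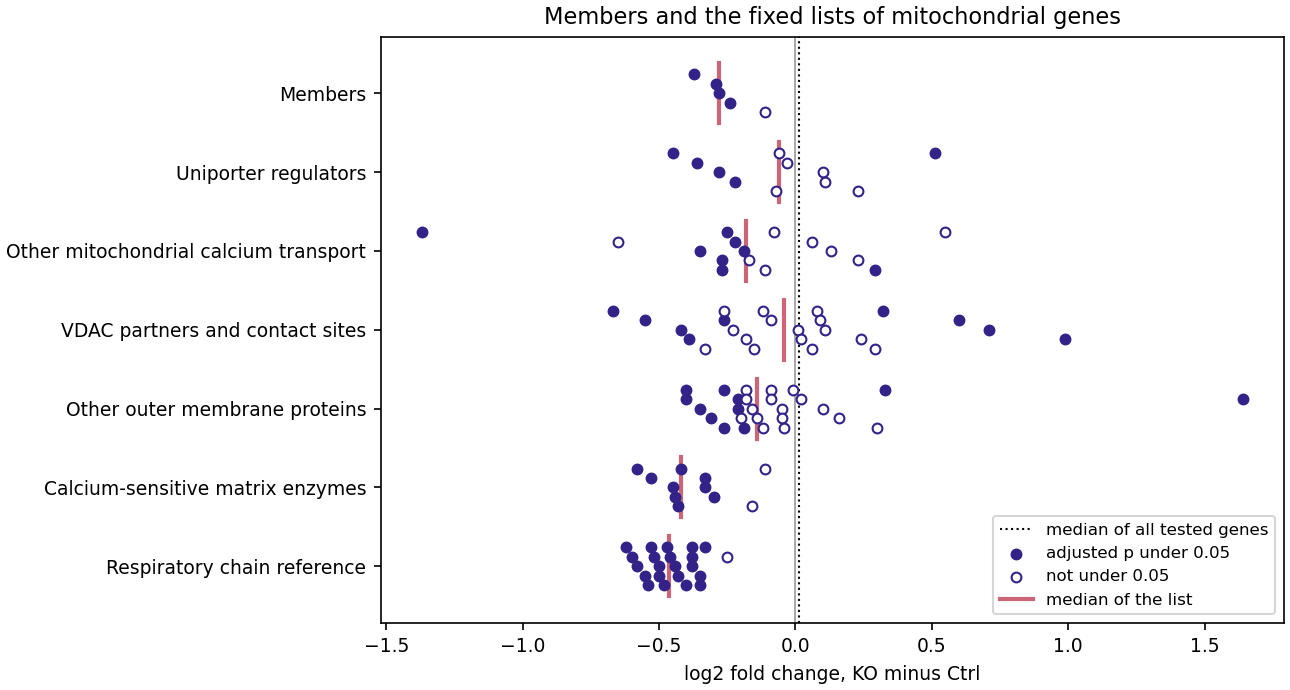
The log2 fold change (KO minus Ctrl) of each tested gene in the members and in 6 lists; filled points have an edgeR adjusted p under 0.05, red bars are list medians and the dotted line is the median of all tested genes. Matrix enzymes and respiratory chain genes lie to the left with medians of -0.42 and -0.47, while uniporter regulators and VDAC partners spread to both sides.

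Within groups, the coefficient of variation was 4.13% in Ctrl and 8.06% in KO libraries for Vdac1, 7.46% and 9.04% for Letm1, 7.21% and 7.2% for Vdac2, and 7.33% and 9.62% for Vdac3. It was 8.91% and 15.6% for Ccdc109a, and 90.2% and 82.3% for the sparsely counted Ccdc109b. After the means of each group, taken separately in and outside the set numbered 7 to 10, were subtracted, Pearson's r between members over the 14 libraries ran from -0.47 (Ccdc109a with Vdac3) to 0.52 (Ccdc109b with Letm1). Vdac1 and Vdac2 had an r of 0.42, and Vdac1 and Vdac3 an r of 0. By the same measure, over 8000 genes, those most like Ccdc109a were Aplp2 (0.91), Dhx33 (0.9) and Sft2d2 (0.89). Those most like Letm1 were Tmcc3 (0.95), Tgfbr2 (0.89) and Dpysl2 (0.88). Vdac1 was most like Tcn2 (0.95), D10Jhu81e (0.91) and Pxmp2 (0.91), and Vdac2 like Ppdpf (0.88), Podxl2 (0.85) and Psme2 (0.84). Vdac3 was most like Psmd6 (0.95), Npm1 (0.95) and Tmem9b (0.93). These are descriptions over libraries whose genes share depth and composition, picked as the highest of 8000.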

How the data were processed

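PolyA RNA of sorted mouse cardiomyocytes was sequenced in 14 libraries made with SMART-Seq v4 and Nextera XT kits, per the labels' protocols. The authors deposited whole-number read counts per gene over merged exons. They also deposited a comparison table with log2 fold changes and p-values. STAR, featureCounts, DESeq2, DESeq and the build mm10 are named in the submitters' processing notes, without versions. Neither the annotation release nor the strand setting is stated there.

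From the counts, genes were filtered with filterByExpr, scaled by TMM and tested with edgeR 4.0.16 (quasi-likelihood, two-sided, no covariate, Benjamini-Hochberg over 11170 genes, called at 0.05) in R 4.3.3. The common biological variation was 16.2%. Log2 CPM used a prior count of 2, and ratios a prior count of 0.5. Single values were tested by exact permutation over the 3432 assignments of 7 against 7 libraries, with a smallest p of 0.00058. DESeq2 1.42.0 and limma 3.58.1 (voom) were alternatives. The edgeR, DESeq2 and limma-voom tests were checked on simulated data, with independent libraries and planted changes larger than those of the members. The permutation tests were not checked in this way. The 2 most alike libraries of a group differed by more than counting noise (chi-square per degree of freedom 4.83), so none was taken as a repeat deposit of another. Counting limits cover counting error only.

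Groups came from the sample titles. Ccdc109b did not pass the filter, so it was tested by permutation of log2 CPM instead of the planned fit. All members were named. Of each list the genes called were named, at most the 8 with the smallest p, with the 2 most abundant genes not called; Mfn2, Letm2, Letmd1 and Slc24a6 were named beside them after their values were seen. The members and lists were chosen with earlier results of these data known. Likeness was computed over 8000 genes with a mean log2 CPM of 3 or more. Some list genes are not reported here.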

Additional observations from a re-analysis of the deposited data

Results flagged for a closer look

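In a check for single libraries that lie far from the rest of their group, 2 of the 32 groups of 7 libraries passed Dixon's 95% limit, which chance passes in about 1 of 20 groups. The level of Ccdc109a in Ctrl2 was 40.5 CPM, above the other Ctrl libraries, with a gap of 0.581 of the group's range against a limit of 0.568. Without Ctrl2 the log2 fold change of Ccdc109a was -0.23 (edgeR adjusted p = 0.0768). Vdac1 relative to the respiratory chain was -0.709 (log2) in Ctrl7, below the other Ctrl libraries, with a gap of 0.644 of the range.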

How the results depend on the processing

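Of 378 alternative values of 19 results, 341 kept their direction and their side of the threshold or, for counts, stayed within 1.5 times. The sign turned in 8, all of the Vdac2 share, which was not called: 0.02 points in all libraries, -0.31 without the libraries numbered 7 to 10, and -0.17 to 0.23 when single libraries were left out. Ccdc109a lost its call without the filter on low counts (log2 fold change -0.27, edgeR adjusted p = 0.0523), without the libraries numbered 7 to 10 (-0.26, 0.124) and in those alone (-0.37, 0.113). Leaving out single libraries gave -0.35 to -0.23, with adjusted p from 0.00362 to 0.0768. In those 4 libraries alone Vdac2 was at -0.26 (0.102), the members called lower numbered 2, and 689 genes were called higher and 777 lower. The Vdac1 share differed by -1.44 points and the Vdac3 share by 1.75 without the set. Leaving out single libraries gave -2.17 to -1.5 points for Vdac1, with the permutation-based call lost in 7 of 14 cases. Relative to the respiratory chain, the differences without the set were 0.16 (Vdac1), 0.18 (Vdac2) and 0.32 (Vdac3), as descriptions against a reference known to be lower. With 5 against 5 libraries there are fewer assignments. The cause of the other changes was not tested. The uniporter regulators called lower numbered 4 without the set and 1 in the set alone. These counts were 5 and 6 for other calcium transport genes and 5 and 5 for VDAC partners. They were 6 and 5 for other outer membrane genes, 9 and 9 for matrix enzymes and 19 and 22 for the respiratory chain. Called higher were 1 and 0 uniporter regulators and 1 and 0 other calcium transport genes. VDAC partners called higher numbered 4 and 2, and other outer membrane genes 1 and 2.

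Same-numbered libraries did not all deviate together (correlations of 0.06 to 0.53; KO libraries correlated best with their own number only for numbers 3 and 7), so the numbers were not taken as pairs. With the replicate block, 1922 genes were called higher and 1848 lower, and the ratio of Ccdc109b to Ccdc109a, at 0.94, passed where it had not (sign-flip permutation, adjusted p = 0.0391). The differences of Ccdc109b (0.89) and Letm1 (0.09) from the respiratory chain also crossed the threshold there. That reference was known to be lower in KO libraries, so no result is drawn from these crossings. The replicate block ended no member's call. The ratio of Ccdc109b to Ccdc109a has no value without a prior count, since Ctrl7 had 0 counts, and Ccdc109b, at 0 to 11 counts a library, is limited by depth.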
